A study of Mus musculus with 12 samples.

Results

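Tight junctions seal the space between neighbouring epithelial cells, and the transcripts described here are those of 9 genes that build them: the claudins Cldn1, Cldn3, Cldn4, Cldn7 and Cldn12, occludin (Ocln), the junctional adhesion molecule F11r, and the cytoplasmic proteins Tjp1 and Cgn. They were taken by gene symbol from a table of 40406 entries, and each symbol was found once. RNA sequencing was done on 12 cultures of 4T1 cells, a mouse mammary carcinoma line of the triple-negative type from BALB/c mice. The groups were cells with an integrin beta 3 knockout label that received docetaxel (KO-DTX) or the solvent DMSO (KO-DMSO), and wild-type cells that received docetaxel (WT-DTX) or DMSO (WT-DMSO), with 3 libraries each. Docetaxel, a taxane that stabilises microtubules, was given at 10 nM for 24 h. All cells then spent 48 h in fresh medium without drug, and all grew on poly-L-lysine. The labels call the 3 cultures of a group biological triplicates. The sources used here do not give how the knockout was made or whether the line is a single clone, so a difference between the lines cannot be told apart from other differences between them.

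Claudins are tetraspan membrane proteins whose extracellular loops pair across the gap between cells, and the set of claudins a cell makes decides which ions and solutes pass. Occludin and junctional adhesion molecules lie in the same strands or beside them, and PDZ-domain scaffolds such as the product of Tjp1 tie these membrane proteins to actin. In the mammary gland they close the ducts and the milk-filled alveoli, and in mammary carcinoma the loss of certain claudins defines a tumour class.

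Libraries held 28729118 to 40801679 gene counts, and levels are given as CPM, the count scaled to a fixed library total, on TMM-scaled library sizes. A single library's limit of 3 counts corresponds to 0.0685 to 0.104 CPM, and covers counting error only. Itgb3, the gene named in the knockout label, averaged 64.7 CPM in KO-DMSO and 65.9 CPM in WT-DMSO libraries, so its transcript did not check the label. The cells are therefore called knockout-labelled. After docetaxel it was lower in KO-DTX (62.4 CPM) than in WT-DTX libraries (83.1 CPM, log2 difference −0.41 ± 0.08 SE, edgeR adjusted p = 0.00765). The title and genotype of WT-DMSO library 1 say wild type, but its description field speaks of the knockout. Its Cldn7 level of 9.32 CPM lay with the other wild-type libraries. Gm23935, annotated as a microRNA gene, took 0.137% to 3.98% of a library's counts, most in WT-DMSO library 2 and, among docetaxel libraries, in KO-DTX library 3. Within their own groups these had the highest shares, at 3.98% in WT-DMSO library 2 and 1.51% in KO-DTX library 3, and WT-DMSO library 1 had 1.62%. Calls of the 9 members that change without WT-DMSO library 1, or without WT-DMSO library 2 and KO-DTX library 3 together, are given both ways. Of 7 mammary epithelial markers, 6 stood above 1 CPM in every group, and Krt5, a basal keratin, was at or near 0. The summed level of the 7 was 2204 to 2873 CPM in KO-DTX, 3070 to 3258 CPM in KO-DMSO, 2099 to 2584 CPM in WT-DTX and 2463 to 3118 CPM in WT-DMSO libraries. The 5 endothelial markers summed to at most 0.768 CPM in any library. Of 5 leukocyte markers, Cd3e alone passed 1 CPM, and the sum ran from 1.45 to 4.56 CPM. Of 4 fibroblast markers, Dcn and Lum were too low to test, and the sum was 12.0 to 14.5 CPM in KO-DTX, 14.8 to 18.6 CPM in KO-DMSO, 19.4 to 20.8 CPM in WT-DTX and 28.3 to 30.5 CPM in WT-DMSO libraries. Pdgfra, the most abundant of these, was lower in KO-DMSO than in WT-DMSO cells (log2 difference −0.92 ± 0.11 SE, edgeR adjusted p = 5.95e-05) and lower in KO-DTX than in WT-DTX cells (−0.65 ± 0.11 SE, 0.00241). Col1a1, the other fibroblast marker tested, did not pass between the lines in either treatment. The median log2 difference of the 2 was −0.23 under DMSO and −0.28 after docetaxel, nearer to 0 than that of Pdgfra. Of 3 markers of a mesenchymal state, Cdh2 was too low to test, and Vim and Fn1 were lower after docetaxel in both lines. Their sum was 2421 to 2716 CPM in KO-DTX, 3563 to 3722 CPM in KO-DMSO, 2594 to 2856 CPM in WT-DTX and 3304 to 3844 CPM in WT-DMSO libraries. Vim was also lower in KO-DTX than in WT-DTX cells (−0.52 ± 0.13 SE, edgeR adjusted p = 0.0249) and in KO-DMSO than in WT-DMSO cells (−0.57 ± 0.13 SE, 0.00823). Fn1 did not pass in either of these contrasts. The median log2 difference of Vim and Fn1 was −0.28 after docetaxel and −0.20 under DMSO, nearer to 0 than that of Vim. The part of these markers in the claudin results was not tested.

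Both lines expressed Cldn4 above all other claudins. The table held 33 claudin genes, and a claudin was counted as expressed in a line when its mean over the line's 6 libraries reached 1 CPM. By that rule 6 claudins were expressed in knockout-labelled cells (Cldn1, Cldn4, Cldn6, Cldn9, Cldn12 and Cldn23), and 8 in wild-type cells (the same 6, Cldn7 and Cldn34c1). The rule pools both treatments, and by group means the lists differ. Cldn1 was above 1 CPM in KO-DTX and WT-DTX but below it in all DMSO libraries. In KO-DMSO libraries Cldn2, at 1.11 to 1.44 CPM, took its place, and Cldn34c1 reached 1 CPM in WT-DMSO alone. A further 10 in knockout-labelled cells and 9 in wild-type cells had counts in at least 3 of 6 libraries but stayed below 1 CPM on average, Cldn3 among them in both lines. The remaining 17 in knockout-labelled cells and 16 in wild-type cells fell short of that. No count in any library of the line was found for 9 of them in knockout-labelled cells and 11 in wild-type cells. Requiring 5 CPM left 5 claudins in each line. Cldn2, a pore-forming claudin, stood just under the rule in knockout-labelled cells, with a mean of 0.965 CPM. It entered the list, making 7, when KO-DTX library 2 or library 3 was left out. Cldn34c1, from a family of similar copies on the X chromosome, entered the wild-type list through a single library. It had 1.56, 8.33 and 0.304 CPM in the WT-DMSO libraries, and 1.81 CPM on average over the wild-type line, or 0.509 CPM without WT-DMSO library 2. Reads of such copies may have been split or lost in the authors' counting.

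Levels can be set beside each other only per length of transcript, so they were divided by the union of each gene's exons in kilobases. In knockout-labelled cells the order, in CPM per kb over 6 libraries, was Cldn4 (261 ± 25.2, SD), Cldn12 (11.6 ± 1.66), Cldn9 (7.89 ± 1.34), Cldn23 (4.49 ± 2.42), Cldn6 (2.98 ± 0.591) and Cldn1 (0.633 ± 0.597). In wild-type cells it was Cldn4 (242 ± 42.1), Cldn12 (11 ± 0.685), Cldn9 (6.26 ± 1.78), Cldn7 (4.30 ± 0.473), Cldn23 (3.10 ± 1.83), Cldn6 (1.79 ± 0.194), Cldn1 (0.416 ± 0.286) and Cldn34c1 (0.311 ± 0.556). Between Cldn4 and Cldn12 the level dropped 22.6-fold in knockout-labelled cells and 22.1-fold in wild-type cells. The library ranges of neighbours in this order overlapped for Cldn9 with Cldn23 and Cldn23 with Cldn6 in knockout-labelled cells, and for Cldn9 with Cldn7, Cldn7 with Cldn23, Cldn23 with Cldn6 and Cldn1 with Cldn34c1 in wild-type cells. The line means mix docetaxel and DMSO libraries, which widens the SD of Cldn1 and Cldn23, and below Cldn9 the order depends on the group. Cldn23 stood above Cldn6 in KO-DTX (6.65 and 2.56 CPM per kb), but below it in KO-DMSO libraries (2.32 and 3.40). It stood above Cldn7 in WT-DTX (4.70 and 4.01), and below Cldn7 and Cldn6 in WT-DMSO libraries (where Cldn7 and Cldn6 had 4.60 and 1.82). In the wild-type groups the ranges of Cldn23 and its neighbour in the order overlapped. Cldn4 alone made up 90.0% ± 0.858 of the summed claudin level per length in KO-DTX, 90.2% ± 0.508 in KO-DMSO, 90.8% ± 0.368 in WT-DTX and 88.1% ± 1.71 in WT-DMSO libraries (SD, n = 3 each). Cldn7 made up 0.0230% ± 0.00741 of it in KO-DTX, 0.0141% ± 0.00926 in KO-DMSO, 1.33% ± 0.0890 in WT-DTX and 1.94% ± 0.214 in WT-DMSO libraries. That sum was 312 ± 18.9 CPM per kb in KO-DTX, 268 ± 8.86 in KO-DMSO, 301 ± 25.8 in WT-DTX and 239 ± 30.6 in WT-DMSO libraries.

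**Figure D1:**
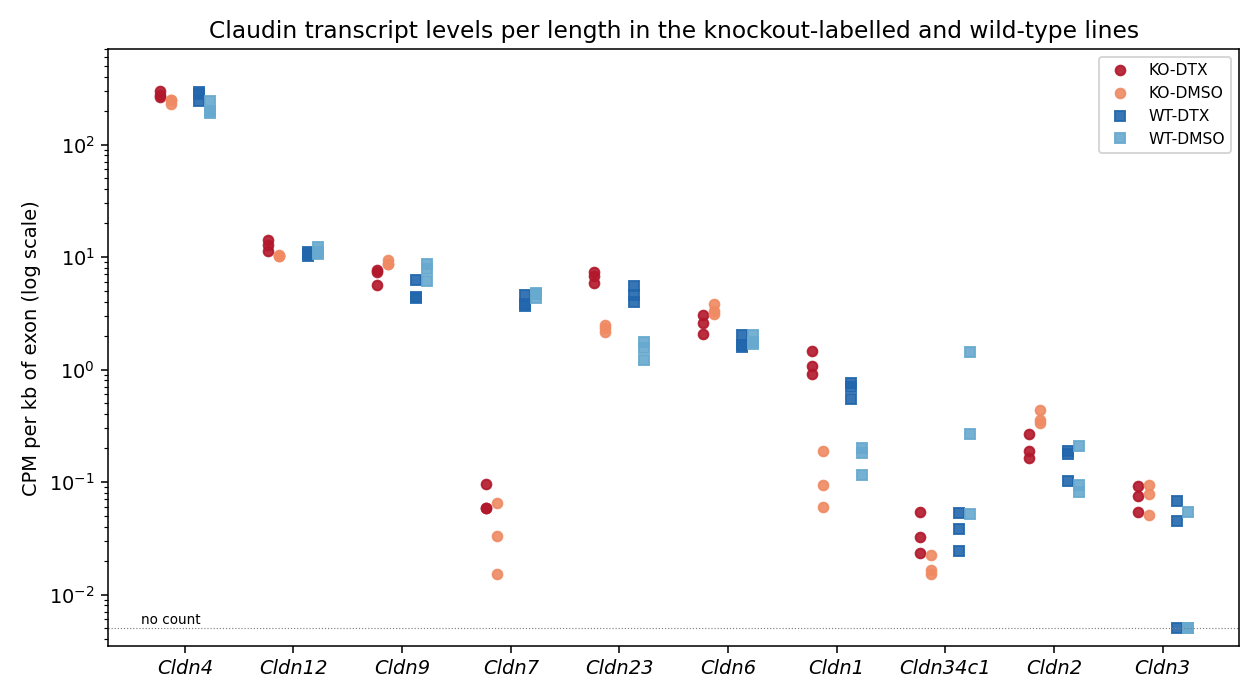
Transcript levels of 10 claudins in CPM per kb of exon on a log axis, with a point for each of the 12 libraries, circles for knockout-labelled and squares for wild-type cells. Cldn4 lies above the rest in every library, Cldn7 lies at 3.65 to 4.78 CPM per kb in wild-type libraries and far lower in knockout-labelled libraries, and points on the dotted line had no count.

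The windows around the annotated starts of the member claudins with the largest level, the largest difference between lines and the largest docetaxel difference are shown, with Cldn3 beside its neighbour Cldn4. Each runs from 250 bases before to 50 bases after a RefSeq transcript start in GRCm38.p6, 5′ to 3′ on the gene's strand. Capitals mark matches, on either strand, to CACCTG (the E-box bound by ZEB and SNAIL factors), AACNGGTT (grainyhead-like factors), TGANTCA (AP-1) or GGGCGG (the GC box of SP and KLF factors), and no matches overlapped in these windows. Cldn7 has a window at chr11:69964529-69964828 and another at chr11:69965171-69965470, both on the plus strand. The others are Cldn1 at chr16:26371790-26372089 and Cldn4 at chr5:134946885-134947184, both on the minus strand, and Cldn3 at chr5:134985964-134986263 on the plus strand.
Cldn7, first start: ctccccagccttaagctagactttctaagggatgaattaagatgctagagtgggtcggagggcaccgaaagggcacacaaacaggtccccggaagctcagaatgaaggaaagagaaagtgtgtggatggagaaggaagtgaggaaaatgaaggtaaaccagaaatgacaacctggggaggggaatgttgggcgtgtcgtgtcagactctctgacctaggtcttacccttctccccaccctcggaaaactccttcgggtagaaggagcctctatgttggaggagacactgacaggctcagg
Cldn7, second start: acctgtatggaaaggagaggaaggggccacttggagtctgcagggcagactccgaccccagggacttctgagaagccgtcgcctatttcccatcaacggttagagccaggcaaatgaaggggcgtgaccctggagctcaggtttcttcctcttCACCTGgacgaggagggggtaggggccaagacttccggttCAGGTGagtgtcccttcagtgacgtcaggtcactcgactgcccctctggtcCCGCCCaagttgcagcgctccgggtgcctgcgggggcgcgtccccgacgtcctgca
Cldn1: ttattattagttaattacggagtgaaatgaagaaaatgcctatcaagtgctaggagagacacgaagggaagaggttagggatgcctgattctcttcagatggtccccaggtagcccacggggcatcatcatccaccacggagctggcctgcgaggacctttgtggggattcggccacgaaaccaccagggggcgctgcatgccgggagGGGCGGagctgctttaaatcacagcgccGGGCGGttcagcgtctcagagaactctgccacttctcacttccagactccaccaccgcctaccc
Cldn4: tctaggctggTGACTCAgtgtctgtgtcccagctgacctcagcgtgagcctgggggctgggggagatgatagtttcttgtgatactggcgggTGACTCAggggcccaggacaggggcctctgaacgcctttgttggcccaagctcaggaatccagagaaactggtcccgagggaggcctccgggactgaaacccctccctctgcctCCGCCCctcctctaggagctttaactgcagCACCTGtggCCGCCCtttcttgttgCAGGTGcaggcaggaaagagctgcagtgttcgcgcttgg
Cldn3: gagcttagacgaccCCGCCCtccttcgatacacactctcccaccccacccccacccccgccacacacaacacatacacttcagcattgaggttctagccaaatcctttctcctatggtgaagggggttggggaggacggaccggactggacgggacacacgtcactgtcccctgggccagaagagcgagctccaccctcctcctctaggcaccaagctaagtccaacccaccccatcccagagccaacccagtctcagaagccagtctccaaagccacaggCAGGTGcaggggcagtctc
The second Cldn7 window held 2 E-boxes and 1 GC box, and the first held no match. Cldn4 held 2 matches each to the E-box, AP-1 and GC box motifs, Cldn1 held 2 GC boxes, and Cldn3 held 1 E-box and 1 GC box. Among 32851 RefSeq promoter windows of this length, 20.2% held the E-box, 2.1% the grainyhead-like motif, 7.8% the AP-1 motif and 35.7% the GC box. A match describes the letters only.

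Cldn7, whose product binds Epcam and lies along the lateral membrane as well as in the strands, differed most between the lines. The gene lies on chromosome 11 at 69964779 to 69967885, plus strand, in GRCm38. It had 0.114, 0.115 and 0.189 CPM in the KO-DTX libraries and 0.128, 0.0651 and 0.0294 CPM in the KO-DMSO libraries. The values were 7.11, 8.88 and 7.42 CPM in the WT-DTX libraries and 9.32, 8.40 and 9.15 CPM in the WT-DMSO libraries. Every wild-type library was above every knockout-labelled library by a wide margin. Under DMSO, summed counts were 7 in the 3 KO-DMSO libraries and 783 in the 3 WT-DMSO libraries, a ratio scaled by library size of 0.00814 (exact 95% counting interval 0.00326 to 0.0169), or a level 123-fold lower (59.3 to 307) in KO-DMSO cells. After docetaxel they were 15 in KO-DTX and 829 in WT-DTX libraries, 57.4-fold lower (34.6 to 103) in KO-DTX cells. The fitted log2 differences were −6.87 ± 0.29 SE under DMSO (edgeR adjusted p = 2.65e-09) and −5.80 ± 0.26 SE after docetaxel (6.88e-09), and depend on edgeR's prior count at so few reads. Cldn7 passed the filter on low counts only through the wild-type libraries. In a bulk sample, less RNA per cell and fewer cells with the transcript cannot be told apart. Docetaxel itself gave no difference past the threshold, with a log2 change of 0.87 ± 0.51 SE in KO-DTX against KO-DMSO cells (edgeR adjusted p = 0.346) and −0.20 ± 0.16 SE in WT-DTX against WT-DMSO cells (0.399).

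The genes around Cldn7 were examined after its values were seen. Of 17 tested genes within 100 kb on either side, 1 was higher (Eif5a, a translation factor, log2 difference 0.47 ± 0.12 SE, edgeR adjusted p = 0.0163) and 1 lower (Gabarap, an autophagy protein, −0.45 ± 0.12 SE, 0.0232) in KO-DMSO than in WT-DMSO cells. After docetaxel 1 passed, and was higher in KO-DTX than in WT-DTX cells (Acap1, a GTPase-activating protein, 0.49 ± 0.12 SE, edgeR adjusted p = 0.0261). Among all tested genes 15.8% passed under DMSO and 5.89% after docetaxel, so these counts of neighbours lie near the shares of all genes. The nearest neighbour, Elp5, a subunit of the elongator complex, ends 0.3 kb beyond Cldn7 on the opposite strand and averaged 42.3 CPM in KO-DMSO and 40.7 CPM in WT-DMSO libraries (log2 difference 0.06 ± 0.09 SE, edgeR adjusted p = 0.734). The log2 differences of the 17 ran from −0.77 to 0.84 after docetaxel and from −1.33 to 0.47 under DMSO, where the lowest was Slc2a4 at under 1 CPM in every group mean.

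**Figure D2:**
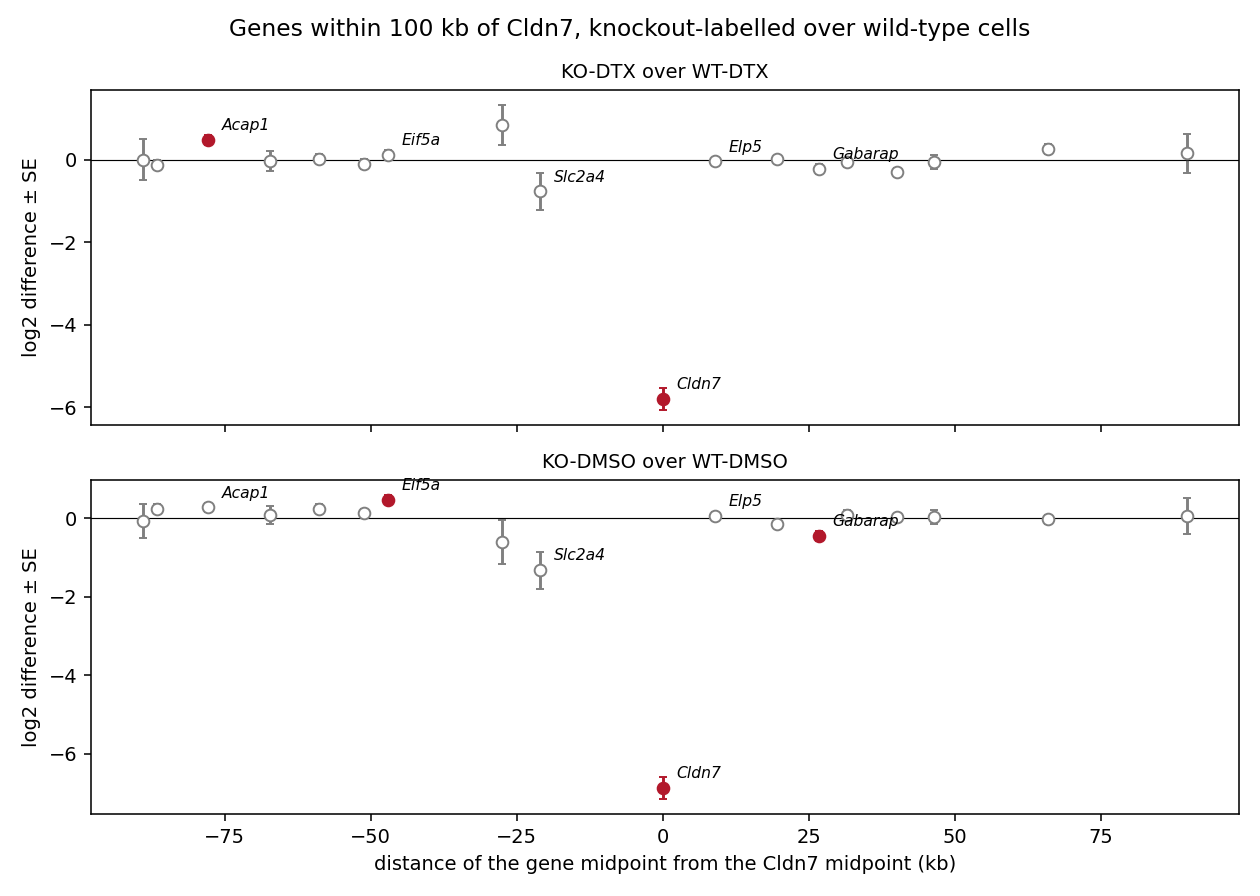
Log2 difference (± SE) of the tested genes within 100 kb of Cldn7, knockout-labelled over wild-type cells, after docetaxel (top) and under DMSO (bottom), against the distance between gene midpoints in kb. Filled red points passed an edgeR adjusted p of 0.05, and Cldn7 stands at −5.80 after docetaxel and −6.87 under DMSO while the other points lie between −1.33 and 0.84.

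Cldn1, a barrier-forming claudin best known from the epidermis, was the member with the largest docetaxel difference. It lies on chromosome 16 at 26356642 to 26371841, minus strand. Levels were 5.23, 4.43 and 7.08 CPM in the KO-DTX libraries, against 0.288, 0.456 and 0.911 CPM in the KO-DMSO libraries. In wild-type cells they were 2.63, 3.40 and 3.67 CPM in the WT-DTX libraries, against 0.556, 0.963 and 0.878 CPM in the WT-DMSO libraries. Docetaxel and DMSO libraries did not overlap in either line. The model gave a 9.92-fold higher level in KO-DTX than in KO-DMSO cells (log2 change 3.31 ± 0.34 SE, edgeR adjusted p = 1.77e-05), and a 4.03-fold higher level in WT-DTX than in WT-DMSO cells (2.01 ± 0.33 SE, 0.000682). The ratio of summed counts was 9.80 in the knockout-labelled line (608 counts after docetaxel and 54 under DMSO, exact 95% counting interval 7.41 to 13.2) and 4.04 in the wild-type line (343 and 70 counts, 3.11 to 5.30). Even the highest level, in KO-DTX libraries, was 1.15 ± 0.280 CPM per kb, or 0.372% ± 0.100 of the claudin sum (SD, n = 3). The change was 1.30 ± 0.48 SE log2 units larger in knockout-labelled than in wild-type cells, which did not pass the test of the difference (edgeR adjusted p = 0.370). All 3 KO-DTX libraries lay above all 3 WT-DTX libraries, yet the log2 difference, 0.79 ± 0.28 SE, missed the threshold (edgeR adjusted p = 0.134). It passed without a filter on low counts (0.78, edgeR adjusted p = 0.0235). Under DMSO the lines overlapped, and the log2 difference was −0.52 ± 0.39 SE (edgeR adjusted p = 0.408).

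Cldn4, a receptor of Clostridium perfringens enterotoxin and the chief claudin of these cells, differed little. Levels were 482, 549 and 498 CPM in KO-DTX libraries and 448, 449 and 419.5 CPM in KO-DMSO libraries. They were 446, 532 and 509 CPM in WT-DTX libraries and 359, 343 and 446 CPM in WT-DMSO libraries. The docetaxel libraries lay above the DMSO libraries within each line, in WT cells by a margin of under 1 CPM between WT-DTX library 1 and WT-DMSO library 3. The level was 1.29-fold higher in WT-DTX than in WT-DMSO cells (log2 change 0.37 ± 0.11 SE, edgeR adjusted p = 0.0174). This result missed the threshold without WT-DTX library 2 (0.0711), WT-DTX library 3 (0.0595), WT-DMSO library 1 (0.0522) or WT-DMSO library 2 (0.0613), with the 6 wild-type libraries fitted alone (0.0508), and without WT-DMSO library 2 and KO-DTX library 3 together (0.0895). In KO-DTX against KO-DMSO cells the log2 change of 0.21 ± 0.11 SE did not pass (edgeR adjusted p = 0.187), but did under a GC correction (0.32, 0.00467). Between the lines the log2 differences were 0.04 ± 0.11 SE after docetaxel (edgeR adjusted p = 0.904) and 0.20 ± 0.11 SE under DMSO (0.232), and the libraries overlapped. The DMSO difference passed without WT-DMSO library 3 (0.32, 0.0464).

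Cldn3, also an enterotoxin receptor, lies 39.3 kb from Cldn4 on chromosome 5 and was close to absent. Its counts were 3, 4 and 3 in the KO-DTX libraries and 2, 3 and 4 in the KO-DMSO libraries, against 0, 2 and 3 in the WT-DTX libraries and 0, 2 and 0 in the WT-DMSO libraries. No group mean exceeded 0.0931 CPM, which lies within the range of the 3-count limit, and the gene was too low to test. The wild-type libraries hold all 3 of the zeros, but the ratio of 9 counts in KO-DMSO to 2 in WT-DMSO libraries was 4.10 with an exact 95% counting interval of 0.848 to 39.0. After docetaxel the ratio of 10 counts in KO-DTX to 5 in WT-DTX libraries was 1.92 (0.599 to 7.18). Within either treatment, counts this low did not separate the lines. Over both treatments there were 19 counts in 6 of 6 knockout-labelled libraries and 7 counts in 3 of 6 wild-type libraries, a difference that was not tested.

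Cldn12, which lacks the PDZ-binding tail of most claudins, had 60.2, 47.9 and 54.4 CPM in KO-DTX libraries and 43.6, 43.3 and 43.7 CPM in KO-DMSO libraries. The wild-type values were 46.5, 44.9 and 43.2 CPM in WT-DTX libraries and 46.5, 51.7 and 45.2 CPM in WT-DMSO libraries. All KO-DTX libraries lay above all KO-DMSO libraries, a 1.25-fold higher level (log2 change 0.32 ± 0.09 SE, edgeR adjusted p = 0.0296). The call was lost without KO-DTX library 1 (0.127), KO-DTX library 3 (0.0866), or KO-DMSO library 1 (0.0818), 2 (0.0973) or 3 (0.0894), under upper-quartile scaling (0.0539), and without WT-DMSO library 2 and KO-DTX library 3 together (0.0654). In WT-DTX against WT-DMSO cells the log2 change was −0.09 ± 0.09 SE (edgeR adjusted p = 0.492). The 2 responses differed by 0.41 ± 0.13 SE, which did not pass (edgeR adjusted p = 0.316). Between the lines it was 0.27 ± 0.09 SE after docetaxel (edgeR adjusted p = 0.106), which passed under a GC correction (0.0375) and without KO-DTX library 2 (0.0369), and −0.14 ± 0.09 SE under DMSO (0.350).

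**Figure D3:**
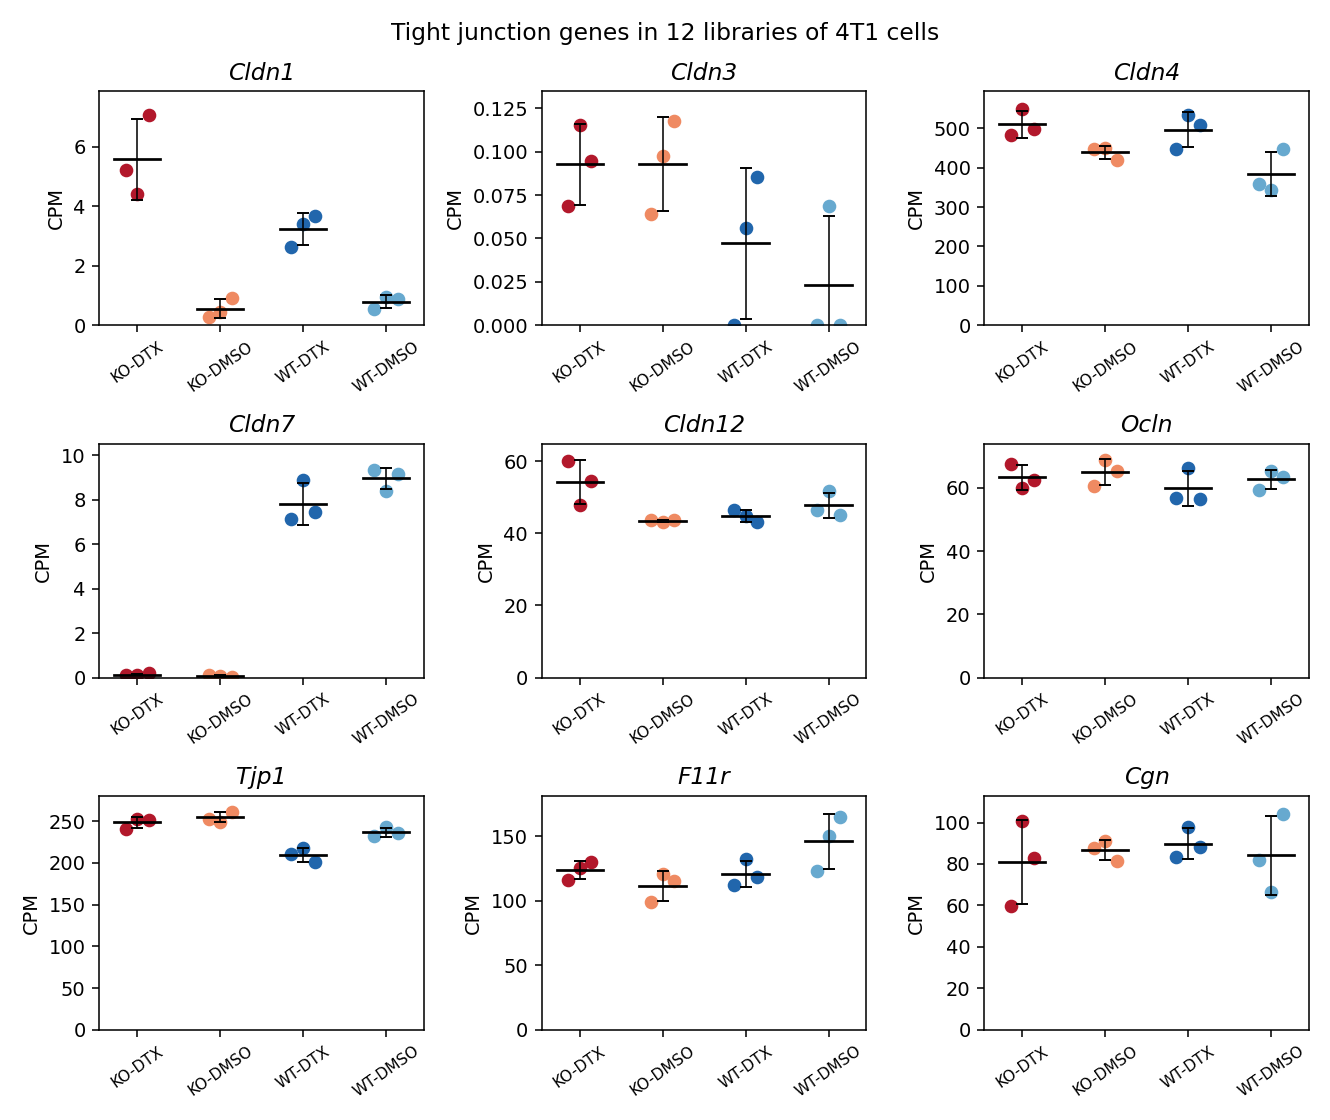
CPM of the 9 genes, each panel with its own axis from 0, in KO-DTX, KO-DMSO, WT-DTX and WT-DMSO libraries; points are libraries, the bar is the mean and the whiskers are the SD (n = 3). Cldn7 is near 0 in both knockout-labelled groups, Cldn1 is high in both docetaxel groups, and Ocln stays between 56.5 and 68.9 CPM in all 12 libraries.

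Occludin, the tetraspan MARVEL protein that was the first transmembrane protein described in tight junctions, was the steadiest member. Ocln stood at 67.5, 60.0 and 62.5 CPM in KO-DTX, 60.7, 68.9 and 65.3 CPM in KO-DMSO, 56.8, 66.4 and 56.5 CPM in WT-DTX and 59.4, 65.4 and 63.4 CPM in WT-DMSO libraries. Its highest library was 1.22-fold its lowest, all groups overlapped, and its log2 differences ran from −0.07 ± 0.09 SE (WT-DTX against WT-DMSO, edgeR adjusted p = 0.611) to 0.08 ± 0.09 SE (KO-DTX against WT-DTX, 0.715).

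F11r, an adhesion molecule of the immunoglobulin superfamily also known as JAM-A, was the second most abundant member per length. It averaged 46.6 ± 2.59 CPM per kb in KO-DTX, 41.9 ± 4.31 in KO-DMSO, 45.3 ± 3.86 in WT-DTX and 54.8 ± 8.05 in WT-DMSO libraries (SD, n = 3 each). The library levels were 98.8, 121 and 116 CPM in KO-DMSO, against 123, 150.0 and 165 CPM in WT-DMSO libraries. These groups did not overlap, by a narrow margin, and the log2 difference was −0.39 ± 0.11 SE (edgeR adjusted p = 0.0310). The call was lost without KO-DMSO library 1 (0.148), KO-DMSO library 3 (0.0661), WT-DMSO library 2 (0.0802) or WT-DMSO library 3 (0.111), with the 6 DMSO libraries alone (0.0620), and without WT-DMSO library 2 and KO-DTX library 3 together (0.112). After docetaxel the values were 116, 126 and 130.0 CPM in KO-DTX, against 112, 132 and 118 CPM in WT-DTX libraries, and the groups overlapped (log2 difference 0.04 ± 0.11 SE, edgeR adjusted p = 0.911). The docetaxel changes were 0.15 ± 0.11 SE in knockout-labelled cells (edgeR adjusted p = 0.393) and −0.27 ± 0.11 SE in wild-type cells (0.0826). The wild-type change passed without WT-DMSO library 1 (−0.39, 0.0133) and with the replicate number added to the model (−0.27, edgeR adjusted p = 0.0284). The difference between the 2 responses was 0.42 ± 0.16 SE and did not pass (edgeR adjusted p = 0.371).

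Tjp1 encodes the scaffold zonula occludens protein on which claudin strands are assembled. Its levels were 241, 252 and 252 CPM in KO-DTX and 253, 249 and 261 CPM in KO-DMSO libraries, 210.0, 217 and 201 CPM in WT-DTX and 232, 243 and 235 CPM in WT-DMSO libraries. The WT-DTX libraries were the lowest 3 of the 12. The level was 1.19-fold higher in KO-DTX than in WT-DTX cells (log2 difference 0.25 ± 0.07 SE, edgeR adjusted p = 0.0491). This call sat at the threshold and was lost when any of 10 libraries was left out, namely all but WT-DMSO library 1 and library 2, with adjusted p-values of 0.0504 to 0.196, and it was lost without WT-DMSO library 2 and KO-DTX library 3 together (0.155), with the 6 docetaxel libraries alone (0.0864), without a filter on low counts (0.238) and under upper-quartile scaling (0.0528). The change in WT-DTX against WT-DMSO cells was −0.18 ± 0.07 SE (edgeR adjusted p = 0.0680), and DESeq2 called it (−0.18, adjusted p = 0.0148). In KO-DTX against KO-DMSO cells it was −0.03 ± 0.07 SE (edgeR adjusted p = 0.777), and between the lines under DMSO 0.10 ± 0.07 SE (0.331).

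Cgn encodes cingulin, a plaque protein that binds Tjp1 and the guanine exchange factor Arhgef2. It had 59.7, 101 and 82.7 CPM in KO-DTX, 87.7, 91.1 and 81.4 CPM in KO-DMSO, 83.2, 98.0 and 88.2 CPM in WT-DTX and 82.1, 66.3 and 104 CPM in WT-DMSO libraries. The spread within KO-DTX and within WT-DMSO libraries was wider than any difference between group means. No contrast passed, with log2 differences from −0.15 to 0.09, each with an SE of 0.17, and edgeR adjusted p-values of 0.723 to 0.904.

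Counted over the members, 2 of the 8 tested passed an edgeR adjusted p of 0.05 in each contrast within or between lines. In KO-DTX against KO-DMSO cells both were higher (Cldn1, Cldn12), where 16.1% of 15538 tested genes passed, 9.09% higher and 7% lower. In WT-DTX against WT-DMSO cells both were higher (Cldn1, Cldn4), where 28.4% of tested genes passed, 14.5% higher and 13.8% lower. In KO-DTX against WT-DTX cells 1 was higher (Tjp1) and 1 lower (Cldn7), where 5.89% of tested genes passed, 2.5% higher and 3.39% lower. In KO-DMSO against WT-DMSO cells both were lower (Cldn7, F11r), where 15.8% of tested genes passed, 6.6% higher and 9.2% lower. These background shares move with the libraries, and leaving out any 1 library gave 8.21% to 18.1% for docetaxel in knockout-labelled cells, 19.2% to 30.4% in wild-type cells, 2.94% to 6.80% between the lines after docetaxel and 7.90% to 20.5% under DMSO. The lowest share came without KO-DMSO library 2 for docetaxel in knockout-labelled cells, without WT-DTX library 3 after docetaxel and without KO-DMSO library 1 under DMSO. A share of 2 in 8 members lies near that of all tested genes in WT-DTX against WT-DMSO cells, and with so few members each share is coarse. The members' median log2 difference was 0.18 in KO-DTX against KO-DMSO cells, −0.08 in WT-DTX against WT-DMSO cells, 0.06 in KO-DTX against WT-DTX cells and −0.05 in KO-DMSO against WT-DMSO cells. Over all tested genes it lay between 0.0024 and 0.017 in these contrasts. For the difference between the docetaxel responses of the lines, edgeR called 0 members and DESeq2 called 0. Of the 8 tested, 3 had an unadjusted edgeR p under 0.05 (Cldn1, Cldn12 and F11r). The share of all genes at that level was not counted, so these 3 have no background to be set against. In that contrast 0.109% of all tested genes passed, a share that was 2.70% without WT-DMSO library 1 and 1.48% without a filter on low counts. The 2 docetaxel contrasts and the 2 line contrasts share groups, so their counts are not independent.

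**Figure D4:**
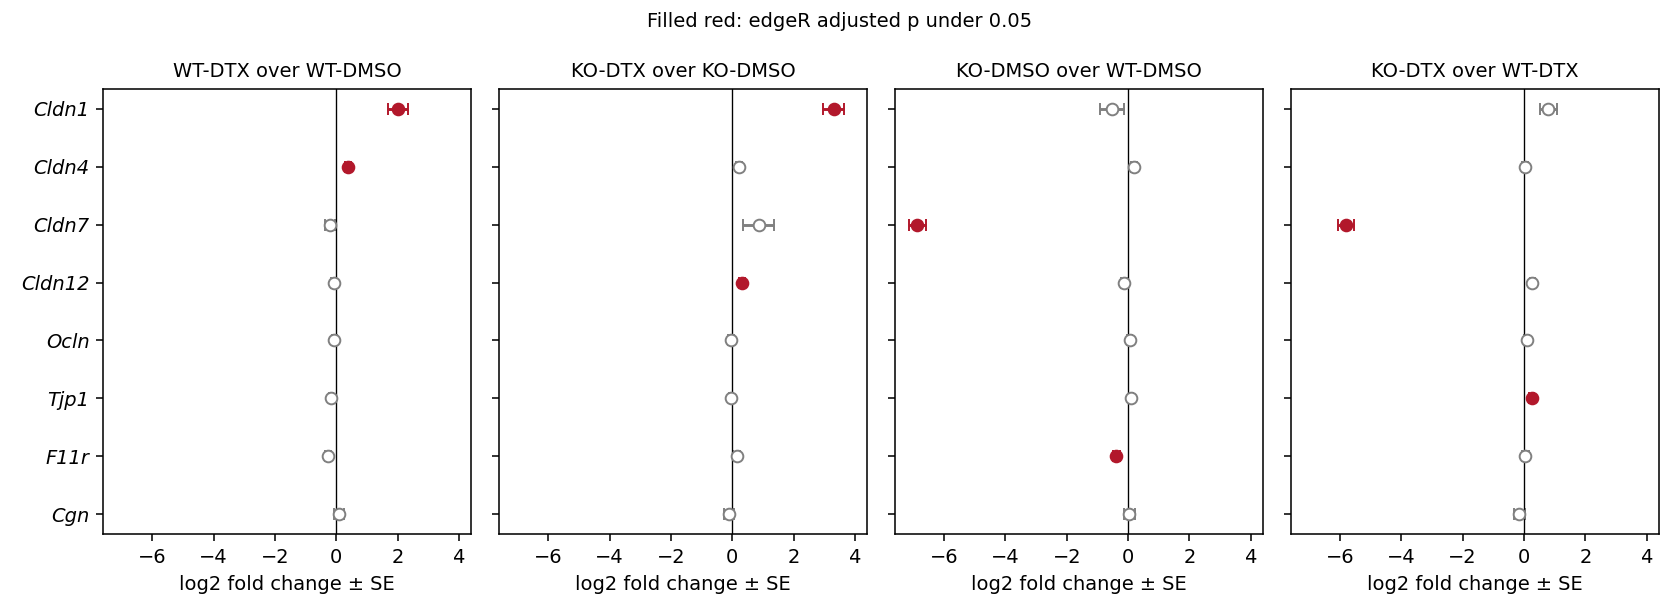
Log2 fold change (± SE) of the 8 tested members in 4 contrasts, each titled with its numerator first. Filled red points passed an edgeR adjusted p of 0.05; the points of Cldn1 at 2.01 and 3.31 and of Cldn7 at −6.87 and −5.80 lie far from 0, and the other calls lie within 0.39 of it.

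Of the other 28 claudin genes 7 could be tested. Cldn23 had 10.9, 12.5 and 13.5 CPM in KO-DTX, against 4.32, 4.01 and 4.55 CPM in KO-DMSO libraries. In wild-type cells it had 7.37, 8.51 and 10.2 CPM in WT-DTX, against 2.22, 3.23 and 2.87 CPM in WT-DMSO libraries. Like Cldn1 it was higher after docetaxel in every library of both lines, with log2 changes of 1.52 ± 0.16 SE in knockout-labelled cells (edgeR adjusted p = 2.51e-05) and 1.64 ± 0.17 SE in wild-type cells (2.29e-05). Under DMSO it was also higher in KO-DMSO than in WT-DMSO cells (0.63 ± 0.17 SE, edgeR adjusted p = 0.0248), a call lost without KO-DMSO library 1 (0.0747), KO-DMSO library 3 (0.0857), WT-DMSO library 1 (0.0663) or WT-DMSO library 3 (0.0521). In KO-DTX against WT-DTX cells the difference of 0.50 ± 0.15 SE did not pass (edgeR adjusted p = 0.0769), but did without WT-DMSO library 1 (0.0478), with a GC correction (0.0344) and by DESeq2 (0.0218). Cldn6, known from embryonic epithelia, averaged 5.85 CPM in KO-DMSO and 3.13 CPM in WT-DMSO libraries (log2 difference 0.90 ± 0.18 SE, edgeR adjusted p = 0.00374). Cldn9, its neighbour on chromosome 17, averaged 7.20 CPM in WT-DTX and 10.9 CPM in WT-DMSO libraries (−0.59 ± 0.18 SE, edgeR adjusted p = 0.0219), a call lost without WT-DTX library 1 (0.0928), WT-DTX library 3 (0.0884) or WT-DMSO library 3 (0.0864). Cldn34c1 passed the filter on low counts through the WT-DMSO libraries, and its fitted folds depend on edgeR's prior count. Its summed counts were 24 in WT-DTX and 296 in WT-DMSO libraries, and 10 in KO-DMSO libraries, with 242 of the 296 in WT-DMSO library 2. It was called lower in WT-DTX (edgeR adjusted p = 0.00485) and KO-DMSO (0.00373) than in WT-DMSO cells, and also without WT-DMSO library 2 (0.0339 and 0.0125). WT-DMSO library 3, at 0.304 CPM, lay within the WT-DTX range of 0.142 to 0.311 CPM. Without library 2 the WT-DTX call therefore rests on WT-DMSO library 1 (1.56 CPM), whose description field speaks of the knockout. The counts were 2 higher and 0 lower in KO-DTX against KO-DMSO, 1 higher and 2 lower in WT-DTX against WT-DMSO, and 3 higher and 1 lower in KO-DMSO against WT-DMSO cells. In KO-DTX against WT-DTX cells edgeR called 0 and DESeq2 called 2. Among all tested genes edgeR called 16.1%, 28.4%, 15.8% and 5.89% in these contrasts, in that order, and DESeq2 called 8.69% in the last. In KO-DTX against WT-DTX cells 3 of 7 had an unadjusted edgeR p under 0.05, but the share of all genes at that level was not counted. The calls not yet named were Cldn15, with 41 counts in KO-DTX and 9 in KO-DMSO libraries (ratio 3.96, exact 95% counting interval 1.90 to 9.28, edgeR adjusted p = 0.0273), and Cldn2 (1.54 ± 0.40 SE in KO-DMSO against WT-DMSO, 0.0171). Cldn15 passed the filter on low counts through the docetaxel libraries, where it was higher. Whether leaving out a library ends the Cldn15 call was not tested. The Cldn2 call was lost without KO-DMSO library 1 (0.0755), WT-DMSO library 2 (0.0775) or WT-DMSO library 3 (0.0711).

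Among 10184 tested genes of at least 5 CPM, the ones whose profile over the 12 libraries came closest to Cldn7, by root mean square difference of centred log2 CPM, were Piezo2 (0.580), Dsc2 (0.733) and Kif21b (0.852). Piezo2, a mechanically gated channel, averaged 0.255 CPM in KO-DTX, 0.174 in KO-DMSO, 14.9 in WT-DTX and 13.2 CPM in WT-DMSO libraries. Dsc2, a desmosomal cadherin, averaged 0.126 CPM in KO-DTX, 0.0522 in KO-DMSO, 10.9 in WT-DTX and 18.3 CPM in WT-DMSO libraries. Kif21b averaged 1.33 CPM in KO-DTX, 1.12 in KO-DMSO, 19.8 in WT-DTX and 35.4 CPM in WT-DMSO libraries, so it was lower but not near 0 in knockout-labelled cells. All were chosen for a profile like that of the member, so the likeness follows from the choice. Closest to Cldn1 were Cxcl5 (0.374), Ly6a (0.475) and Oasl1 (0.504). Cxcl5, a neutrophil-attracting chemokine, averaged 472 CPM in KO-DTX, 65.3 in KO-DMSO, 325 in WT-DTX and 65.0 CPM in WT-DMSO libraries. Ly6a, a glycolipid-anchored surface protein, averaged 76.8 CPM in KO-DTX, 10.3 in KO-DMSO, 86.5 in WT-DTX and 17.2 CPM in WT-DMSO libraries.

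Of the other membrane proteins of the junction, 9 of 14 listed could be tested. In KO-DTX against KO-DMSO cells 1 was higher and 0 lower (median log2 change 0.25), in WT-DTX against WT-DMSO cells 3 and 1 (0.13), in KO-DTX against WT-DTX cells 2 and 0 (−0.03) and in KO-DMSO against WT-DMSO cells 1 and 0 (0.02). Among all tested genes edgeR called 16.1%, 28.4%, 5.89% and 15.8% in these contrasts, in that order. Epcam, the adhesion molecule that binds claudins, averaged 448 CPM in KO-DTX and 324 CPM in WT-DTX libraries (log2 difference 0.47 ± 0.10 SE, edgeR adjusted p = 0.0141), a call lost without KO-DTX library 2 (0.0514) or 3 (0.0680) or WT-DTX library 1 (0.0620) or 3 (0.0759). Under DMSO it averaged 521 CPM in KO-DMSO and 379 CPM in WT-DMSO libraries (0.46 ± 0.10 SE, edgeR adjusted p = 0.00825), and no single library ended that call, though it was lost without WT-DMSO library 2 and KO-DTX library 3 together (0.0534). Cxadr, the coxsackievirus and adenovirus receptor, averaged 190.3 CPM in KO-DTX and 143 CPM in WT-DTX libraries (0.42 ± 0.10 SE, edgeR adjusted p = 0.0241). Its call was lost without KO-DTX library 1 (0.0833) or 3 (0.0638) or any of WT-DTX libraries 1 (0.0550), 2 (0.0830) and 3 (0.101). Marveld3, an occludin relative, averaged 15.4 CPM in WT-DTX and 22.8 CPM in WT-DMSO libraries (−0.56 ± 0.15 SE, edgeR adjusted p = 0.0114), lost without WT-DTX library 1 (0.0558) or WT-DMSO library 3 (0.0535).

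Of the plaque and scaffold proteins, 21 of 25 listed were tested. In KO-DTX against KO-DMSO cells 0 were higher and 3 lower (median −0.09), in WT-DTX against WT-DMSO cells 1 and 4 (−0.15), in KO-DTX against WT-DTX cells 2 and 0 (0.13) and in KO-DMSO against WT-DMSO cells 4 and 0 (0.05). Among all tested genes edgeR called 16.1%, 28.4%, 5.89% and 15.8% in these contrasts, in that order. Amotl1, a scaffold of the angiomotin family, averaged 665 CPM in KO-DTX and 941 CPM in KO-DMSO libraries (log2 change −0.50 ± 0.08 SE, edgeR adjusted p = 0.000877), and 602 CPM in WT-DTX and 824 CPM in WT-DMSO libraries (−0.45 ± 0.08 SE, 0.00123). Its relative Amot averaged 65.1 CPM in KO-DMSO and 38.7 CPM in WT-DMSO libraries (0.75 ± 0.12 SE, edgeR adjusted p = 0.00111). Afdn, which links nectins to actin, averaged 378 CPM in KO-DTX and 286 CPM in WT-DTX libraries (0.40 ± 0.07 SE, edgeR adjusted p = 0.00484). Prkcz, an atypical protein kinase C of cell polarity, averaged 13.0 CPM in WT-DTX and 18.1 CPM in WT-DMSO libraries (−0.48 ± 0.15 SE, edgeR adjusted p = 0.0281). The Prkcz call was lost without any of WT-DTX libraries 1 (0.0674), 2 (0.0559) and 3 (0.0926) or without WT-DMSO library 3 (0.132).

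Regulators of junction assembly and actomyosin were counted in the same way. Of 25 tested of 26 listed, 0 were higher and 2 lower in KO-DTX against KO-DMSO cells (median −0.01), 2 and 3 in WT-DTX against WT-DMSO cells (−0.09), 1 and 2 in KO-DTX against WT-DTX cells (0.07) and 4 and 4 in KO-DMSO against WT-DMSO cells (−0.04). Among all tested genes edgeR called 16.1%, 28.4%, 5.89% and 15.8% in these contrasts, in that order. The 8 of 25 called in KO-DMSO against WT-DMSO cells lay above that share. The 5 of 25 called in WT-DTX against WT-DMSO cells lay below it. Marcks, an actin-binding substrate of protein kinase C, averaged 42.6 CPM in KO-DTX and 16.9 CPM in WT-DTX libraries (log2 difference 1.33 ± 0.10 SE, edgeR adjusted p = 1.22e-06). Synpo, an actin-bundling protein, averaged 8.02 CPM in KO-DTX and 17.8 CPM in WT-DTX libraries (−1.16 ± 0.22 SE, edgeR adjusted p = 0.00647). Arhgef2, the exchange factor that cingulin binds, averaged 153 CPM in KO-DMSO and 241 CPM in WT-DMSO libraries (−0.65 ± 0.10 SE, edgeR adjusted p = 0.000790). Cttn, the cortical actin protein cortactin, averaged 215 CPM in KO-DTX and 313 CPM in KO-DMSO libraries (−0.54 ± 0.16 SE, edgeR adjusted p = 0.0310), a call lost without KO-DTX library 1 (0.119) or 3 (0.0824) or without KO-DMSO library 1 (0.0803), 2 (0.0919) or 3 (0.0676).

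Of 16 tested of 20 listed transcription factors reported to act on claudin genes, 4 were higher and 1 lower in KO-DTX against KO-DMSO cells (median −0.07), 6 and 3 in WT-DTX against WT-DMSO cells (0.09), 3 and 1 in KO-DTX against WT-DTX cells (0.09) and 4 and 2 in KO-DMSO against WT-DMSO cells (0.10). Among all tested genes edgeR called 16.1%, 28.4%, 5.89% and 15.8% in these contrasts, in that order. Ehf, an ETS factor of epithelia, passed the filter on low counts through the docetaxel libraries, and under DMSO it lay near the limit of 3 counts per library. It had 625 counts in KO-DTX and 12 in KO-DMSO libraries, a ratio of 45.3 (exact 95% counting interval 25.8 to 88.2, edgeR adjusted p = 2.16e-07). It had 198 counts in WT-DTX and 10 in WT-DMSO libraries, a ratio of 16.3 (8.68 to 34.5, edgeR adjusted p = 6.84e-06). Klf4, a zinc finger factor of barrier epithelia, averaged 24.5 CPM in KO-DTX and 13.9 CPM in KO-DMSO libraries (0.82 ± 0.16 SE, edgeR adjusted p = 0.00312). In KO-DMSO against WT-DMSO cells its difference of −0.46 ± 0.16 SE did not pass (edgeR adjusted p = 0.0648), but did under other settings, among them without WT-DMSO library 1 (0.0158) or KO-DMSO library 2 (0.0343). Zeb2, a repressor that binds the E-box searched above, was higher after docetaxel and lower in knockout-labelled cells. It averaged 16.6 CPM in KO-DTX, 10.8 CPM in KO-DMSO, 25.9 CPM in WT-DTX and 17.3 CPM in WT-DMSO libraries, with log2 differences of 0.61 ± 0.13 SE (KO-DTX against KO-DMSO, edgeR adjusted p = 0.00463), 0.58 ± 0.12 SE (WT-DTX against WT-DMSO, 0.00365), −0.64 ± 0.12 SE (KO-DTX against WT-DTX, 0.00595) and −0.68 ± 0.13 SE (KO-DMSO against WT-DMSO, 0.00258). Elf3, an epithelial ETS factor, averaged 79.7 CPM in KO-DTX and 49.2 CPM in WT-DTX libraries (0.69 ± 0.18 SE, edgeR adjusted p = 0.0402). The Elf3 call was lost without KO-DTX library 2 (0.0808) or 3 (0.160), KO-DMSO library 2 (0.0546) or 3 (0.0525), or WT-DTX library 1 (0.147), 2 (0.0751) or 3 (0.121).

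Of the surface proteases and inhibitors associated with claudins, all 12 listed were tested. In KO-DTX against KO-DMSO cells 0 were higher and 2 lower (median 0.06), in WT-DTX against WT-DMSO cells 2 and 2 (0.01), in KO-DTX against WT-DTX cells 2 and 1 (0.03) and in KO-DMSO against WT-DMSO cells 3 and 1 (−0.01). Among all tested genes edgeR called 16.1%, 28.4%, 5.89% and 15.8% in these contrasts, in that order. Prss8, the membrane-anchored protease prostasin, averaged 23.3 CPM in WT-DTX and 41.2 CPM in WT-DMSO libraries (log2 change −0.82 ± 0.10 SE, edgeR adjusted p = 8.66e-05). Its difference of −0.28 ± 0.10 SE in KO-DMSO against WT-DMSO cells did not pass (edgeR adjusted p = 0.0699), but did without WT-DMSO library 1 (0.0150) and by DESeq2 (0.0493). Mmp9, a gelatinase, averaged 987 CPM in WT-DTX and 548 CPM in WT-DMSO libraries (0.85 ± 0.12 SE, edgeR adjusted p = 0.000320). Its change of 0.27 ± 0.12 SE in KO-DTX against KO-DMSO cells did not pass (edgeR adjusted p = 0.163), but did without WT-DMSO library 1 (0.0377) and with the 6 libraries alone (0.0334). Prss22, a serine protease, averaged 116 CPM in KO-DTX and 71.1 CPM in WT-DTX libraries (0.70 ± 0.14 SE, edgeR adjusted p = 0.00757). Mmp14, a membrane-type metalloprotease, averaged 200.4 CPM in KO-DTX and 278 CPM in WT-DTX libraries (−0.47 ± 0.08 SE, edgeR adjusted p = 0.00347). These 4 calls held without any single library. In all 5 lists of other junction genes, edgeR called 0 of 83 tested genes for the difference between the docetaxel responses and DESeq2 called 0. For that difference 10 of the 83 had an unadjusted p under 0.05, but the share of all genes at that level was not counted. Mmp9 was called for this difference without WT-DMSO library 1 (−0.78, edgeR adjusted p = 0.00952) and without a filter on low counts (−0.59, 0.00728), against −0.58 ± 0.17 SE (0.285) with all libraries and the filter. Without WT-DMSO library 2 and KO-DTX library 3 together, the edgeR adjusted p also missed the threshold for Cldn2 under DMSO (0.106), Cldn9 in WT-DTX against WT-DMSO (0.0637), Epcam in KO-DTX against WT-DTX (0.0556), Prkcz in WT-DTX against WT-DMSO (0.0587) and Elf3 in KO-DTX against WT-DTX cells (0.115).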

How the data were processed

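RNA was sequenced from 12 cultures in 4 groups of 3. The authors deposited a table of raw gene counts, made with STAR 2.5.1a and featureCounts 1.4.6-p5, with bcl2fastq and Subread also named, per the submitters' processing notes. The genome build, the annotation and the treatment of strand and of reads with several matches are not stated in those notes or the labels. The table had 40757 entries; 351 exact repeats were removed and 40406 kept, of which 40329 matched GENCODE M21 by name, used for coordinates, exon lengths and GC content (GRCm38). All columns were matched to samples by name, with 0 left over. Replicates within a group differed by more than sampling noise (chi-square per degree of freedom 8.46 to 172).

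Counts were analysed in R 4.3.3 with edgeR 4.0.16 (filterByExpr, TMM, 1 quasi-likelihood fit over all 12 libraries with 4 group means). This left 15538 tested genes, whose p-values were adjusted by Benjamini-Hochberg and called at 0.05. The SE of a log2 fold change was derived from its F statistic. Alternatives used DESeq2 1.42.0, other scalings and filters, the 6 libraries of a contrast alone, a replicate block, a GC correction (lowess span 0.3), and leaving out libraries. The scripts were tested on simulated data. Figures were drawn with Python 3.11.15 and matplotlib 3.10.9. Count intervals are exact at 95% and cover counting error only. Promoter windows come from RefSeq (GRCm38.p6).

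All 9 members are described. Other claudins are named at 1 CPM or more on average in either line, and of each other list up to 4 called genes with the largest log2 change and at least 5 CPM; 1 such gene is not reported here. For the 2 members with the widest range, the 3 genes with the nearest profile are named. The members and lists were chosen with earlier results of these data known.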

Additional observations from a re-analysis of the deposited data

How the results depend on the processing

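Under all 22 alternatives Cldn1 kept its call in both docetaxel contrasts (log2 change 3.01 to 3.89 in knockout-labelled cells and 1.81 to 2.16 in wild-type cells), and Cldn7 kept its call in both line contrasts (−6.04 to −5.66 after docetaxel and −7.48 to −6.48 under DMSO). The other calls of members were small and changed with the setting, and the cause was not tested. The share of all tested genes called in the same setting is given beside each count. For docetaxel in knockout-labelled cells, 2 members were called (16.1%). There was 1 with upper-quartile scaling (16.8%) or without WT-DMSO library 2 and KO-DTX library 3 (11%). A GC correction gave 3, Cldn4 added (19.8%), and leaving out a library gave 1 to 2 (8.21% to 18.1%). For docetaxel in wild-type cells, 2 were called (28.4%), and 1 with the 6 libraries alone (22.2%) or without WT-DMSO library 2 and KO-DTX library 3 (19.6%). A GC correction with the replicate block gave 4 (35.1%), and leaving out a library gave 1 to 2 (19.2% to 30.4%). For knockout-labelled against wild-type cells after docetaxel, 2 were called (5.89%). There was 1 with upper-quartile scaling (6.1%), the 6 libraries alone (5.61%) or WT-DMSO library 2 and KO-DTX library 3 removed (3.56%). A GC correction with the replicate block gave 4 (9.42%), and leaving out a library gave 1 to 2 (2.94% to 6.8%). Under DMSO, 2 were called (15.8%), and 1 with the 6 libraries alone (11.8%) or without WT-DMSO library 2 and KO-DTX library 3 (7.98%). Leaving out a library gave 1 to 2 (7.9% to 20.5%). The difference between the docetaxel responses gave 0 members in each setting. The claudins expressed in wild-type cells numbered 8, and 5 with a mean of at least 5 CPM (7 to 8 with a library left out); in knockout-labelled cells they numbered 6 (6 to 7).

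Libraries with the same replicate number showed little sign of deviating together. The correlation of their deviations ran from −0.187 to 0.346 over 12 pairs, and 6 of 12 libraries correlated best with their own number. The highest values, 0.346 and 0.218, were those of libraries 1 and 2 between the lines after docetaxel. With 3 libraries per group this cannot settle whether the numbers pair the samples. The main fit therefore used no pairing, and the replicate block is given as an alternative. With the replicate block, members called were 2 for docetaxel in knockout-labelled cells, 3 in wild-type cells (F11r added, −0.27, edgeR adjusted p = 0.0284), 1 between the lines after docetaxel, 2 under DMSO and 0 for the difference between responses. Of all tested genes, that fit called 17.4%, 29%, 6.07%, 16.3% and 0.309%, in that order. Depth limits Cldn3, and Cldn7 in knockout-labelled cells, whose levels lie near the limit that 3 counts allow.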

Other observations

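The genes around Cldn4 and Cldn3 on chromosome 5 were examined after the members' values were seen. Of 5 tested genes within 100 kb of Cldn4, 4 were called higher in KO-DMSO than in WT-DMSO cells, where 6.6% of all tested genes were higher. Of these 4, Wbscr25 lay near the limit of 3 counts and could be tested only through the knockout-labelled libraries, where it is high. Abhd11os lay near the threshold and overlaps Abhd11 on the opposite strand. The 4 calls are thus not independent, and a difference of the region as a whole was not tested. Abhd11, a mitochondrial hydrolase, averaged 40.6 CPM in KO-DMSO and 26.6 CPM in WT-DMSO libraries (log2 difference 0.61 ± 0.09 SE, edgeR adjusted p = 0.000563). Stx1a, a syntaxin of vesicle fusion, averaged 13.5 CPM in KO-DMSO and 9.38 CPM in WT-DMSO libraries (0.52 ± 0.12 SE, edgeR adjusted p = 0.00935). Abhd11os averaged 1.49 CPM in KO-DMSO and 0.755 CPM in WT-DMSO libraries (0.97 ± 0.31 SE, edgeR adjusted p = 0.0468). Wbscr25, an antisense gene beside Cldn3, had 21 counts in KO-DMSO and 2 in WT-DMSO libraries (ratio 9.56, exact 95% counting interval 2.34 to 84.1, edgeR adjusted p = 0.0444), and passed the filter on low counts through the knockout-labelled libraries. After docetaxel 2 of the 5 were called higher, Abhd11 and Wbscr25, where 2.5% of all tested genes were higher. Abhd11 was higher in KO-DTX than in WT-DTX cells (0.41 ± 0.09 SE, edgeR adjusted p = 0.0151). Wbscr25 had 45 counts in KO-DTX and 2 in WT-DTX libraries (ratio 21.7, 5.66 to 184, edgeR adjusted p = 0.00892). Where the counting did not use strand, reads of an antisense gene and of the gene it overlaps cannot be told apart. Cldn4 itself did not pass between the lines (0.04 ± 0.11 SE after docetaxel and 0.20 ± 0.11 SE under DMSO). Whether leaving out a library ends these calls was not tested.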
